A study of Homo sapiens with 10 samples.

Results

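Keratin genes were followed through RNA-seq of human cells with and without ZNF274, a KRAB zinc finger protein that recruits repressive chromatin to clustered genes. The members, KRT7, KRT8, KRT18, KRT19 and KRT10, are 5 genes taken by symbol from the 24050 genes that occur in either of 2 count tables, and each is listed in both. The HEK293T table holds WT replicates S15, S16 and S17 and ZNF274 KO replicates S18, S19 and S20. The neural progenitor cell (NPC) table holds WT replicates S3 and S5 and ZNF274 KO replicates S1 and S2. HEK293T is a line derived from human embryonic kidney, in which the KO was made with CRISPR-Cas9 guides on either side of the gene. The NPCs were differentiated from WT or homozygous KO human embryonic stem cells of the H1 line. Cells given the guides were selected with puromycin, and KO lines were grown from single sorted HEK293T cells or single stem cell colonies. The study describes its NPC data as from 2 parental cell lines, but the labels do not tie a library to a line or say whether replicates are separate cultures, so that p values measure the spread between these libraries alone.

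Keratins are intermediate filament proteins of epithelial cells, and a filament needs a type I chain to pair with a type II chain. KRT8 (type II) and KRT18 (type I) form the basic pair of single-layered epithelia and are the first keratins of the embryo. KRT7 (type II) and KRT19 (type I) join them in ducts and glands. KRT10 is a type I chain known from the upper layers of the epidermis, so that it is a keratin of stratified rather than of simple epithelium. Type II genes lie together on chromosome 12 and type I genes on chromosome 17, except KRT18, which lies beside KRT8 at the end of the type II cluster. The study asked how clustered genes respond to loss of ZNF274, and the comparisons here address which members changed, and in which cell type.

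On hg19, KRT7 (ENSG00000135480) spans chr12:52626304-52645970 on the plus strand. KRT8 (ENSG00000170421) spans chr12:53290971-53343738 on the minus strand and KRT18 (ENSG00000111057) chr12:53342655-53346690 on the plus strand. KRT19 (ENSG00000171345) spans chr17:39679869-39684560 and KRT10 (ENSG00000186395) chr17:38974369-38978866, both on the minus strand. Annotated exons of KRT8 and KRT18 overlap by 525 bases on opposite strands, and those of KRT10 and its antisense gene KRT10-AS1 by 61 bases. The libraries were stranded, but the strand setting of the counter is not given in the sources used here.

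Promoters are shown for KRT8 and KRT10, the 2 members of 5 held in the RefSeq promoter table (GRCh38.p14), because both genes rose in KO NPCs. KRT7, KRT18 and KRT19 are not among them. Each window runs from 250 bases before the RefSeq gene start to 50 bases after it, printed 5′ to 3′ on the gene's strand. The KRT8 window is chr12:52926420-52926719 and the KRT10 window is chr17:40822565-40822864, both on the minus strand. Capitals mark matches, on either strand, to a TATA box (TATAAA), an AP-1 site (TGANTCA), an Sp1 site (GGGCGG), the CCAAT box or a TFAP2 site (GCCNNNGGC).
KRT8: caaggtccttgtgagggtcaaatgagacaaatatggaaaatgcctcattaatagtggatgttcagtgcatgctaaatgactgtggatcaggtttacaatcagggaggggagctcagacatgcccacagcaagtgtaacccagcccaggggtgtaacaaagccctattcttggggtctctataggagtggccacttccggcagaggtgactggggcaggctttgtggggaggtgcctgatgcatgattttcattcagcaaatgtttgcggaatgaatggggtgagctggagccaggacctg
KRT10: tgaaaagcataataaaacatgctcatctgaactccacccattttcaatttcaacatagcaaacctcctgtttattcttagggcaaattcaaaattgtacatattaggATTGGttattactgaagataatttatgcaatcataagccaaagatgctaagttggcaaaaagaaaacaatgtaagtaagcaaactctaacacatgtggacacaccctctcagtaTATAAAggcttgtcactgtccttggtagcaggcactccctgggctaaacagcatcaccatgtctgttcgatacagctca
The KRT10 window held a TATA box on its own strand at bases 222 to 227, just before the gene start, and a CCAAT box on the other strand at bases 108 to 112. No 2 matches overlapped. The KRT8 window held none of the 5 sets of letters. Both windows match hg19 exactly once on their chromosome, KRT10 at chr17:38978817-38979116, at the start of its canonical transcript. The KRT8 window, at chr12:53320204-53320503, holds 1 of 18 annotated starts of KRT8, which lies 21393 bases upstream of the start of the canonical transcript. Which start the cells used was not analysed here. Of 35116 windows of 300 bases in the table, 11.5% held the TATA box, 34.6% the CCAAT box, 45% the Sp1 site, 23.2% the TFAP2 site and 7.71% the AP-1 site. G and C made up 50.7% of the KRT8 window and 37.7% of the KRT10 window.

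Total counts on genes were 21421013 to 32285876 in the HEK293T libraries and 18621266 to 23035490 in the NPC libraries. ZNF274 was counted 423 to 492 times in each WT HEK293T library and 0 times in each of the 3 KO libraries. In NPCs it was counted 491 and 496 times in the WT libraries and 0 times in both KO libraries. Replicates of a group never matched within counting error. Of 12 neural progenitor markers, 12 were listed in NPCs, and their summed level was 2971 to 3973 normalised CPM (counts scaled to a common library size) in WT NPCs against 108 to 122 CPM in WT HEK293T cells. Of 22 genes of epithelial junctions and identity, 19 are listed in NPCs, and the summed level of these 19 was 104 to 126 CPM in WT NPCs and 135 to 165 CPM in KO NPCs, against 43.0 to 54.4 CPM in WT HEK293T cells. Much of the WT NPC sum was the single gene CLDN6, with means of 64.45 CPM in WT NPCs and 0.272 CPM in WT HEK293T cells. Of these 19, 8 were called higher in WT NPCs than in WT HEK293T cells and 4 lower, CDH1 among the latter, where 25.1% of all genes were called higher and 15.5% lower. CDH1, the cadherin of epithelial junctions, had 1 and 0 counts in WT NPCs and 1 and 5 counts in KO NPCs. EPCAM had 81 and 52 counts in WT NPCs and 46 and 47 counts in KO NPCs. In WT HEK293T cells CDH1 had 159 to 233 counts, and EPCAM had 3 to 8 counts. RNA of bulk cultures was measured, so that fewer cells of a type and less RNA per cell cannot be told apart.

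**Figure D1:**
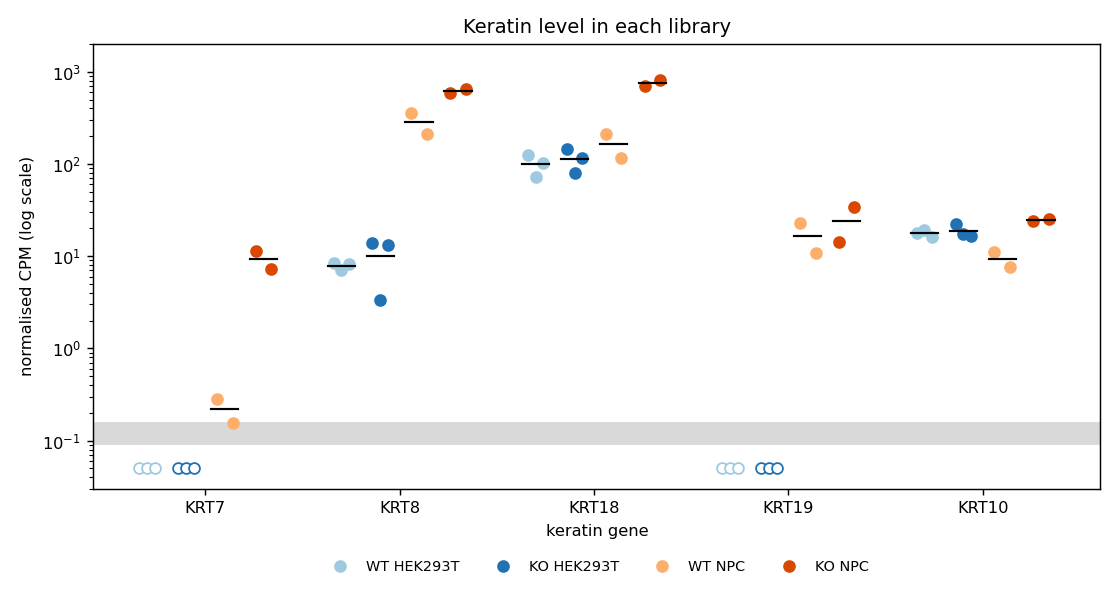
Normalised CPM of the 5 keratin genes in each of the 10 libraries (points) on a log scale, with the mean of each group (bars). Open points at the bottom are libraries with 0 counts, drawn at a fixed height, and the grey band is the level of 3 counts across libraries. All 5 genes had their highest group mean in KO NPCs, and KRT7 and KRT19 had 0 counts in the 6 HEK293T libraries.

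KRT18, KRT10 and KRT8 were present in HEK293T cells, and KRT18 was the highest of them. KRT18 was counted 3781, 2101 and 3059 times in WT cells, which is 125, 72.4 and 103 CPM (mean 100 ± 26.6, SD, n = 3). KRT10 was counted 533, 563 and 482 times (17.8 ± 1.57 CPM), and KRT8 was counted 252, 205 and 243 times (7.87 ± 0.705 CPM). Per kilobase of merged exons, the mean levels of KRT18, KRT10 and KRT8 were 32.7, 8.22 and 1.14 CPM, so that the type I chain KRT18 stood far above its type II partner. KRT7 and KRT19 had 0 counts in the 6 libraries. A count of 0 allows up to 3 counts, which is a level of 0.0916 to 0.130 CPM in these libraries, for counting error alone.

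Loss of ZNF274 was not accompanied by a detectable change of any keratin in HEK293T cells. KRT8 was counted 318, 110 and 354 times in KO cells, or 13.8, 3.36 and 13.2 CPM. Replicate S19 lay below the 3 WT libraries and the other 2 KO libraries above them, so that the groups overlapped, and S18 was 4.11 times as high as S19. The log2 fold change (FC) of KRT8 was 0.36 (SE 0.414, 95% interval -0.553 to 1.27, adjusted p = 0.892 by edgeR's quasi-likelihood test, Benjamini-Hochberg over 19018 genes). KRT18 was counted 3337, 2609 and 3136 times, or 145, 79.6 and 117 CPM, 2 libraries inside the WT range and 1 above it, with a log2 FC of 0.18 (interval -0.346 to 0.711, edgeR adjusted p = 0.907). KRT10 was counted 513, 577 and 446 times, or 22.2, 17.6 and 16.6 CPM, with a log2 FC of 0.09 (interval -0.311 to 0.482, edgeR adjusted p = 0.941). KRT7 and KRT19 were at 0 in the KO libraries too and were not tested. A gene was called when its adjusted p was below 0.05 and its FC above 2, and by that rule 0 of the 3 tested members were called, with 0 at an unadjusted p below 0.05 and 0 called by DESeq2 or voom. Over all genes, 0.478% were called higher and 0.0105% lower in KO HEK293T cells.

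WT NPCs carried more KRT8 and KRT19 RNA than WT HEK293T cells, and a little KRT7. KRT8 was counted 7570 and 4122 times in WT NPCs, or 360 and 211 CPM (mean 285 ± 105, n = 2), and both libraries lay far above the HEK293T libraries. The log2 FC of WT NPCs over WT HEK293T cells was 5.18 (SE 0.229, edgeR adjusted p = 1.53e-07). KRT19 was counted 476 and 209 times, or 22.6 and 10.7 CPM, which is at least 164-fold higher than in HEK293T cells when 3 counts per library are taken as the floor there (edgeR adjusted p = 8.06e-06). KRT7 was counted 6 and 3 times, or 0.285 and 0.154 CPM, at least 2.16-fold higher (edgeR adjusted p = 0.0203). Replicate S5 was at the floor of 3 counts, and without S3 the gene fell under the filter. Both KRT19 and KRT7 passed the filter on low counts through the NPC libraries alone, so that their p values are descriptions.

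KRT18 and KRT10 did not pass the call between the WT cell types. KRT18 was counted 4470 and 2291 times in WT NPCs, or 212 and 117 CPM, and S5 fell inside the range of the HEK293T libraries. Its log2 FC was 0.72 (SE 0.269, edgeR adjusted p = 0.0435, FC 1.64), short of the FC threshold, and without S5 it was called higher (log2 FC 1.10, edgeR adjusted p = 0.00915). KRT10 was counted 233 and 148 times, or 11.1 and 7.58 CPM, below each WT HEK293T library, with a log2 FC of -0.93 (SE 0.229, edgeR adjusted p = 0.00637), also short of an FC of 2, and without S3 it was called lower (log2 FC -1.21, edgeR adjusted p = 0.0049). In all 3 of 5 members were called higher and 0 lower in WT NPCs, where 25.1% of all genes were called higher and 15.5% lower. KRT7 and KRT19 are among those called and passed the filter through the NPC libraries alone. The number called is therefore a description. The 2 cell types come from separate tables, and cell type and culture cannot be told apart in this comparison.

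In NPCs the picture after loss of ZNF274 was a rise of 4 of the 5 keratins. KRT7 rose from a trace, KRT18 rose by a log2 FC of 2.19, and KRT10 and KRT8 rose by less. KRT7 was counted 230 and 157 times in KO NPCs, or 11.4 and 7.20 CPM, against 6 and 3 counts in WT NPCs. Both KO libraries lay above both WT libraries, and the log2 FC was 5.35 (SE 0.474, 95% interval 4.23 to 6.46, edgeR adjusted p = 0.000399). The fold rests on WT libraries with 6 and 3 counts.

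KRT18 was counted 14239 and 17595 times in KO NPCs, or 708 and 807 CPM (mean 757 ± 69.8, n = 2), against 212 and 117 CPM in WT NPCs. Its log2 FC was 2.19 (SE 0.259, interval 1.57 to 2.80, edgeR adjusted p = 0.00123). In KO NPCs KRT18 stood at the 99.4th percentile of genes by CPM per kilobase. KRT8 was counted 11862 and 14199 times, or 590 and 651 CPM, against 360 and 211 CPM. Its log2 FC was 1.11 (SE 0.228, interval 0.567 to 1.65, edgeR adjusted p = 0.0117), an FC of 2.15 that is close to the threshold. The call of KRT8 was lost without S5 (log2 FC 0.77), S1 (edgeR adjusted p = 0.0505) or S2 (edgeR adjusted p = 0.0657), and with all 10 libraries in 1 fit (edgeR adjusted p = 0.0832).

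KRT10 was counted 482 and 556 times in KO NPCs, or 24 and 25.5 CPM, against 11.1 and 7.58 CPM in WT NPCs. The KO replicates were close to each other and above both WT libraries, with a log2 FC of 1.39 (SE 0.223, interval 0.864 to 1.92, edgeR adjusted p = 0.00416). KRT10-AS1, which shares 61 exonic bases with it, had a log2 FC of 0.56 (edgeR adjusted p = 0.0872). KRT19 was counted 290 and 744 times in KO NPCs, or 14.4 and 34.1 CPM, against 22.6 and 10.7 CPM. The groups overlapped, S2 being the highest and S5 the lowest of the 4, and the log2 FC of 0.53 (interval -0.548 to 1.60, edgeR adjusted p = 0.436) did not pass. Without S3 it was called higher, with a log2 FC of 1.16, and without S2 the log2 FC was -0.23. Replicate S3 was above S5 for all 5 members, by 1.46 times for KRT10 to 2.11 times for KRT19. In KO NPCs 8.45% of all genes were called higher and 8.36% lower, beside 4 of 5 members higher and 0 lower.

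**Figure D2:**
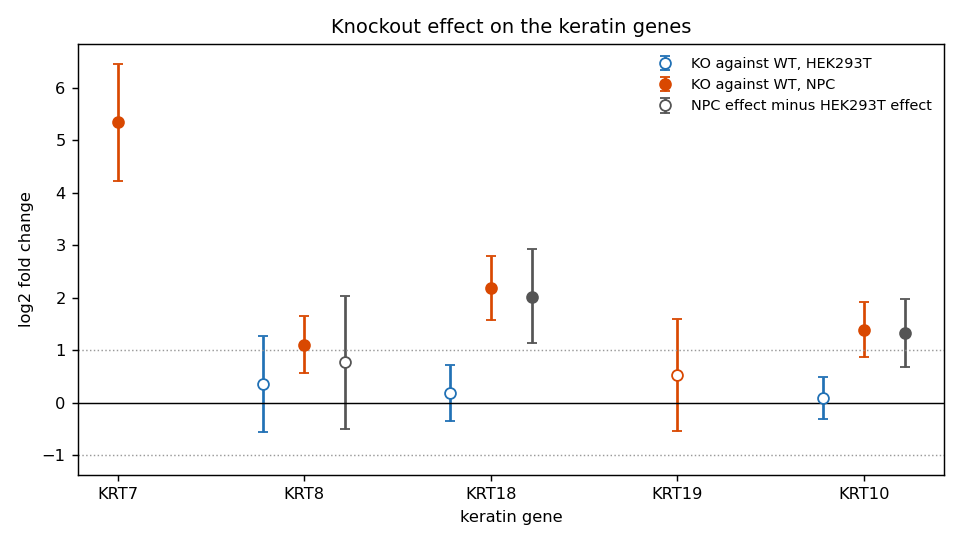
Log2 fold change of each keratin gene, KO against WT, in HEK293T cells (blue) and NPCs (orange), and the NPC effect minus the HEK293T effect (grey), with 95% intervals derived from edgeR's F statistics and p values. Filled points passed the call, open points did not, and dotted lines mark an FC of 2. KRT7 and KRT19 have no HEK293T effect and no difference, since they had 0 counts there.

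The KO effect on KRT18 and KRT10 differed between the cell types. The interaction term, the log2 FC in NPCs minus that in HEK293T cells, was 2.02 for KRT18 (SE 0.412, interval 1.13 to 2.92, edgeR adjusted p = 0.0065) and 1.33 for KRT10 (SE 0.300, interval 0.672 to 1.98, edgeR adjusted p = 0.0113). The KRT10 call was lost without S5 (edgeR adjusted p = 0.0517) or S2 (edgeR adjusted p = 0.052). For KRT8 the term was 0.77 (SE 0.585, interval -0.497 to 2.04, edgeR adjusted p = 0.424), so that a difference between cell types was not detectable for this gene. The interval also holds differences above an FC of 2. For KRT7 and KRT19 the term cannot be estimated. Thus 2 of the 3 members with a term were called higher and 0 lower, beside 6.01% higher and 6.22% lower of all genes. With library size alone that split moved from 1157 higher and 1197 lower to 843 and 1700, and both members stayed called.

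Ordered by mean level, KRT7, KRT8 and KRT18 ran from KO NPCs through WT NPCs to the HEK293T groups. For KRT8 the NPC groups stood apart from each other and from HEK293T cells, and the KO and WT HEK293T cells overlapped. For KRT18 only KO NPCs stood apart, since the 3 lower groups overlapped as neighbours. KRT19 was in both NPC groups, which overlapped, and at 0 in HEK293T cells. KRT10 ran in another order, with KO NPCs (24.7 CPM) above KO and WT HEK293T cells (18.8 and 17.8 CPM, overlapping) and WT NPCs (9.32 CPM) lowest.

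Relative to its partner KRT18, KRT8 was higher in WT NPCs than in the other 3 groups. The ratio of KRT8 to KRT18, each as CPM per kilobase of merged exons, was 0.755 and 0.803 in WT NPCs and 0.372 and 0.360 in KO NPCs. KO NPCs were 0.47 times WT NPCs in this ratio. The 2 groups did not overlap, but 2 libraries against 2 cannot give an exact two-sided permutation p below 0.333. In HEK293T cells the ratio was 0.0297 to 0.0435 in WT and 0.0188 to 0.0504 in KO libraries (exact permutation p = 0.90, the smallest possible being 0.10). The absolute ratio depends on the length used. With the canonical transcript, whose length for KRT8 is 1784 rather than 6881 bases, it was 1.34 and 1.43 in WT NPCs and 0.660 and 0.639 in KO NPCs. The ratio of KO to WT does not depend on the length.

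**Figure D3:**
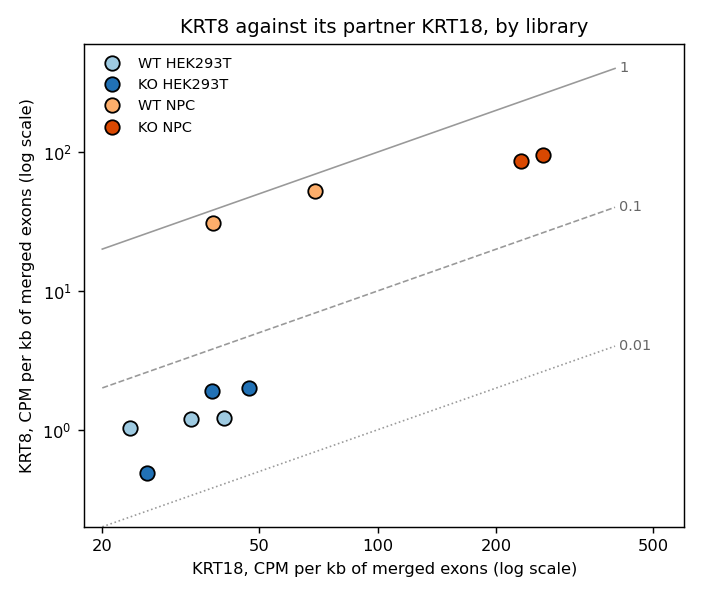
KRT8 against KRT18 in each library, both as CPM per kilobase of merged exons on log axes, with lines where KRT8 is 1, 0.1 and 0.01 times KRT18. The HEK293T libraries lie between the ratios 0.0188 and 0.0504, WT NPCs at 0.755 and 0.803, and KO NPCs at 0.372 and 0.360.

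Summed over the family members studied, KRT7 and KRT8 (type II) against KRT18, KRT19 and KRT10 (type I) gave mean ratios per kilobase of 0.0284 in WT and 0.0304 in KO HEK293T cells, 0.643 in WT NPCs and 0.345 in KO NPCs. Type I chains were in excess in each of the 10 libraries on this scale, but not in WT NPCs with the canonical transcript, where the mean ratio was 1.22. KRT18 made up 79.0% of the members' CPM in WT HEK293T cells, 34.4% in WT NPCs and 52.7% in KO NPCs. KRT8 made up 6.36%, 60.1% and 43.2% in the same groups. The 5 genes together took 0.0621% and 0.0364% of all counts in WT NPCs and 0.129% and 0.144% in KO NPCs.

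Sequence copies elsewhere in the genome bear on how many reads of these genes can be counted, since the authors kept uniquely mapped reads. Of the 50-base stretches in merged exons, 12.9% for KRT8 and 13% for KRT18 occur again, exactly, outside the gene in GRCh37. The share was 0.272% for KRT7, 0.280% for KRT19 and 0% for KRT10. The second copies lie at many loci, pseudogenes among them, and KRT8P3 holds the most KRT8 stretches of any keratin pseudogene (286). KRT8P3 had 174 and 61 counts in WT NPCs and 232 and 381 counts in KO NPCs, and 0 to 3 counts in the HEK293T libraries. Its log2 FC in NPCs was 1.33 (SE 0.444, edgeR adjusted p = 0.0634). All listed KRT8 pseudogenes together had 3.69 to 4.39% of the KRT8 counts in NPCs, but 28.3 to 136% in HEK293T cells, where S19 gave the highest share. Most of these HEK293T counts were those of KRT8P12, with 140 of 150 in S19 and 97 of 126 in S15. KRT18 pseudogenes had 0.438 to 1.43% of the KRT18 counts. Of 23 keratin pseudogenes listed in NPCs, 1 was called higher (KRT18P4, with 0 and 0 counts in WT and 7 and 9 counts in KO libraries) and 0 lower, against 8.45% higher and 8.36% lower of all genes. The call of KRT18P4 was lost with DESeq2 and without any 1 of the 4 libraries. KRT18P4, KRT8P5 and KRT18P54 had 0 counts in WT NPCs and passed the filter on low counts through KO libraries. The number of pseudogenes called is therefore a description.

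Other keratins of the 2 clusters changed as well in KO NPCs. The study itself names the keratin family among the tandemly arrayed genes up-regulated in KO NPCs. It reports loss of the repressive histone mark H3K9me3 over the families it lists there. Its text does not name single keratin genes, and H3K9me3 was not analysed here. The annotation holds 27 protein-coding keratin genes in the chromosome 12 cluster and 28 on chromosome 17, of which 5 and 7 are listed in the NPC table and 6 and 6 in the HEK293T table. Of the 12 in NPCs, 6 were called higher (KRT7, KRT8, KRT10, KRT17, KRT18 and KRT80), 1 lower (KRT23) and 5 not (KRT15, KRT19, KRT34, KRT81 and KRT222), beside 8.45% higher and 8.36% lower of all genes. KRT17, KRT81, KRT34 and KRT15 passed the filter on low counts through the KO libraries, so that the number called is a description. KRT80, a type II keratin, had 12 and 7 counts in WT and 200 and 254 counts in KO NPCs (log2 FC 4.50, SE 0.355, edgeR adjusted p = 0.000265). KRT17, a type I keratin of basal and injured epithelium, had 0 and 0 counts in WT and 11 and 35 counts in KO NPCs, at least 7.27-fold higher (edgeR adjusted p = 0.0145, and 0.1 without S2). KRT23 had 15 and 34 counts in WT and 1 and 6 counts in KO NPCs (log2 FC -2.86, edgeR adjusted p = 0.0488), and its call was lost with voom (adjusted p = 0.0761) and without S5, S1 or S2 (edgeR adjusted p = 0.143, 0.217 and 0.0675).

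The other listed keratins were low. KRT34 had 2 and 0 counts in WT and 5 and 23 counts in KO NPCs, KRT15 had 2 and 1 against 12 and 10, and KRT81 had 0 and 0 against 3 and 5. All 3 were higher in both KO libraries and missed the adjusted threshold (edgeR adjusted p = 0.082, 0.0718 and 0.116), and KRT34 was called higher without S3 (edgeR adjusted p = 0.00893). KRT222 had 0 and 3 counts in both groups. In HEK293T cells 4 of 12 listed keratins were tested (KRT8, KRT10, KRT18 and KRT222) and 0 were called, with 0 at an unadjusted p below 0.05 and 0 called by DESeq2 or voom. Outside the keratins, genes within 250 kb of KRT8 and KRT18 numbered 11 in the NPC table, of which 2 were called higher (SPRYD3 and TNS2) and 0 lower in KO NPCs. Of those as near to KRT7, 0 of 6 were called higher and 1 lower (NR4A1), near KRT10 1 of 3 was called higher (KRTAP2-3) and 0 lower, and near KRT19 0 of 3 were called higher and 1 lower (HAP1). These stand beside 8.45% higher and 8.36% lower of all genes. KRT10-AS1, which was not called in KO NPCs, is not counted among the 3 genes near KRT10.

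**Figure D4:**
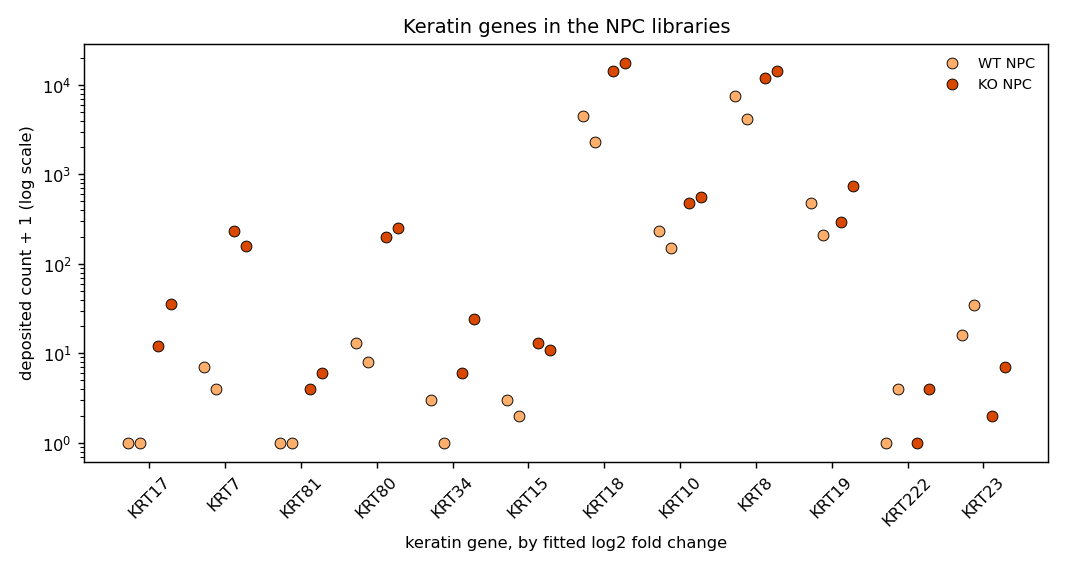
Deposited counts plus 1, on a log scale, of the 12 keratin genes listed in NPCs, with WT replicates in light orange and KO replicates in dark orange, ordered by fitted log2 fold change. KRT18 and KRT8 carry the most counts, KRT7 and KRT80 reach 157 to 254 counts in KO libraries alone, and the 6 genes other than KRT10 and KRT19 hold at most 35.

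Of 19 genes tested in NPCs for desmosome proteins and others that anchor keratin filaments, 4 were called higher and 1 lower, beside 8.45% and 8.36% of all genes. The median log2 FC was 0.71, and the list was not tested against all genes. DSP, the desmoplakin that ties keratins to desmosomes, rose from 21.2 ± 1.89 to 205 ± 9.45 CPM (log2 FC 3.26, edgeR adjusted p = 2.27e-05). DSC3, a desmosomal cadherin, rose from 3.99 ± 0.734 to 101 ± 8.15 CPM (log2 FC 4.66, edgeR adjusted p = 2.26e-05). DSG2 and ITGB4 were the other 2 called higher. COL17A1, a hemidesmosome collagen, fell (log2 FC -3.65, edgeR adjusted p = 0.0108), a call lost with voom and without S1 or S2. The call of DSG2 was lost without S5 and with library size alone. In HEK293T cells 0 of 13 were called.

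Of 18 epithelial junction and identity genes tested in KO NPCs, 1 was called higher (SPINT1) and 3 lower (CLDN3, SPINT2 and TJP3), with a median log2 FC of -0.18. Of all genes 8.45% were called higher and 8.36% lower. Each of these 4 calls was lost without S1, those of SPINT1, SPINT2 and TJP3 also without S2, and those of SPINT2 and TJP3 also without S3. Among 13 transcription factors known to act on keratin genes, 3 were called higher in KO NPCs and 1 lower (TFAP2C). FOSL1, an AP-1 subunit, rose from 8.05 ± 4.26 to 45.6 ± 4.27 CPM (log2 FC 2.49, edgeR adjusted p = 0.00211), ETS1 from 61.7 ± 21.1 to 325 ± 7.60 CPM (log2 FC 2.38, edgeR adjusted p = 0.000456) and ETS2 from 6.89 ± 0.471 to 21.3 ± 0.264 CPM (log2 FC 1.61, edgeR adjusted p = 0.00118). Of 13 other intermediate filament genes, 3 were called higher and 2 lower. DES, the filament of muscle, rose from 2.01 ± 0.630 to 174 ± 17.6 CPM (log2 FC 6.42, edgeR adjusted p = 1.9e-05), and the neuronal filaments INA and NEFM fell (log2 FC -2.02 and -1.75, edgeR adjusted p = 0.000551 and 0.00389).

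Markers of other cell types moved between WT and KO NPCs together with the keratins, and the counts called stand beside 8.45% higher and 8.36% lower of all genes. Of 12 neural progenitor markers, 0 were called higher and 9 lower (median log2 FC -3.78), although their sum of 3251 to 3280 CPM in KO NPCs lay inside the WT range, since NES was not among those called. SIX3 and HES5 were at 0 in both KO libraries, and SOX1 was at or below the floor. Of 12 mesenchyme markers, 6 were called higher and 0 lower, and their sum was 1332 to 2228 CPM in WT and 5397 to 6217 CPM in KO NPCs. Of 8 smooth muscle markers, which include TAGLN, 4 were called higher and 0 lower, and their sum was 1229 to 1639 CPM in WT and 4719 to 4749 CPM in KO NPCs. Mesothelium markers, a tissue that carries KRT8, KRT18, KRT19 and KRT7, summed to 65.4 to 93.5 CPM in WT and 104 to 110 CPM in KO NPCs, with 1 of the 7 listed called higher (BNC1). Most of the WT sum was PDPN, at 75.6 ± 20.7 CPM. Of the 7, 4 were at or below the floor in WT and 1 in KO NPCs. MSLN, UPK3B, LRRN4, HAS1, CALB2 and PDPN were not called in KO NPCs. Trophoblast and amnion markers summed to 8.55 to 14.1 and 8.44 to 11.6 CPM, with 2 of the 8 listed called higher (ISL1 and PGF) and 2 lower (TFAP2C and VTCN1).

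The same 8.45% higher and 8.36% lower of all genes stand beside the lists of fewer genes that follow. Keratinocyte markers summed to 4.09 to 16.6 CPM in WT and 2.54 to 6.97 CPM in KO NPCs, with 1 of the 3 listed called higher (SFN) and 1 lower (COL17A1). Of 5 definitive endoderm and gut markers 0 were called by edgeR, with 1 at an unadjusted p below 0.05. Of 5 pluripotency markers 1 was called higher (ZFP42) and 1 lower (LIN28A). Genes of these lists that are not listed in NPCs, TP63, WT1, CDX2, HAND1, SOX17, FOXA2 and POU5F1 among them, were not analysed there. The calls of BNC1, PGF, ISL1 and ZFP42 were lost without S1, and those of ISL1, ZFP42, TFAP2C and SFN without S2. The part of these cell types in the keratin levels of KO NPCs was not tested. In HEK293T cells 0 genes of these lists were called by edgeR.

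The genes whose pattern over the 10 libraries was most like that of each keratin are given as a description, with Pearson's r of log2(CPM + 0.5). The 10 points share 2 cell types and 2 genotypes. For KRT7 and KRT19 the 6 HEK293T points hold the same value, since both had 0 counts there. Their r values therefore rest largely on the NPC libraries standing apart from those zeros. KRT7 was most like EXOC3L1 and STYXL2 (r = 0.998 for both) and KCNE3 (0.997), out of 14942 genes. KRT8 was most like RFTN1 (0.995), MAGED1 and ZFYVE1 (0.994 for both). KRT18 was most like GTPBP2 (0.985), CD59 (0.984) and GOLGA2 (0.980). KRT19 was most like ZNF663P (0.998), LINC02562 and ELF3 (0.997 for both), and KRT10 was most like JAK1 (0.989), PHF23 (0.975) and ERFE (0.973). Among the members themselves KRT8 went with KRT19 (0.978) and KRT7 with KRT18 (0.952), while KRT10 stood apart from KRT8 (-0.110) and KRT19 (-0.179).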

How the data were processed

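Poly(A) RNA was sequenced from stranded libraries of 10 samples. Per the submitters' processing notes and the study's methods, the authors aligned with HISAT2 to the hg19 genome and used featureCounts to count reads with a unique position on genes and transposable elements. Features with fewer reads in total than samples were discarded. They deposited raw counts per gene for each cell type, and versions are not given in the sources used here. Unique counting can lower the counts of genes that have near-identical copies. Groups came from the sample titles. Symbols and hg19 positions came from GENCODE v44lift37, in which 23273 of 24050 identifiers were found.

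Counts were tested with edgeR 4.0.16 in R 4.3.3 (TMM, quasi-likelihood, Benjamini-Hochberg over the genes with, on average, 1 count or more per library), each cell type by itself. The interaction and the WT comparison used the 19665 genes of both tables before that filter. The study's own test, voom, was an alternative, with limma 3.58.1, DESeq2 1.42.0, other scalings and filters, and each library left out. CPM are counts over TMM-scaled library sizes of all 10 libraries. A level of 3 counts was the floor, which covers counting error alone, of reads without molecular identifiers. The SE and 95% intervals, which hold the spread between libraries, are not given by edgeR and were derived from its results. Each SE is the absolute log2 FC over the square root of edgeR's F statistic. The 95% interval uses the t quantile at which that SE returns edgeR's p value. On simulated counts edgeR recovered 82% of 100 genes changed 3-fold and 97% of 100 changed 6-fold in the NPC design (20152 genes, 15 false among 194 calls), 89% and 100% in the HEK293T design (18691 genes, 17 false among 206), 52% and 89% for the interaction (19155 genes, 8 false among 149) and 87% and 99% for the WT comparison (18902 genes, 19 false among 205). These counts were drawn with the dispersions that edgeR fitted, and only genes with a mean of at least 1 CPM were changed. Far fewer genes were changed than were called in the real NPC comparison. The shares recovered therefore do not apply to keratins near the floor.

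The members and all gene lists were chosen with earlier results of these data known. Genes named beside the members are the other keratins and their pseudogenes, ZNF274, at most 4 called genes of each list by size of log2 FC with a mean of at least 1 CPM in a group, list genes at the floor, and the 3 genes most like each member. CDH1, EPCAM, DSG2, SPRYD3, TNS2, NR4A1 and KRT10-AS1 and further called genes of short lists were added after their values were seen. The canonical transcript length for the chain ratios was also added then. Proteins were not analysed here.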

Additional observations from a re-analysis of the deposited data

Results flagged for a closer look

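The knockout effect on 2 keratins differed between the cell types by the interaction test of edgeR. For KRT18 the log2 fold change in NPCs exceeded that in HEK293T cells by 2.02 (adjusted p = 0.0065), with both KO NPC libraries above both WT NPC libraries and overlapping groups in HEK293T cells. For KRT10 the difference was 1.33 (adjusted p = 0.0113), again with NPC groups apart and HEK293T groups overlapping. Over the alternatives tried the adjusted p ranged from 8.89e-05 to 0.0307 for KRT18 and from 0.00038 to 0.052 for KRT10. Neural progenitor, mesenchyme and smooth muscle markers moved between WT and KO NPCs as well, and their part in these differences was not tested.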

How the results depend on the processing

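The direction of each called member was kept under all alternatives run. The calls of KRT7, KRT10 and KRT18 in NPCs, of KRT18 for the interaction, and of KRT8 and KRT19 between WT cell types were kept as well. Values that missed the call changed sign without 1 library: KRT18 in HEK293T cells without S16 (log2 FC -0.0076) or S18 (-0.029, up to 0.40 without S19), KRT10 there without S18 (-0.053, up to 0.18 without S20), and KRT19 in NPCs without S2 (-0.23, up to 1.16 without S3). KRT8 in HEK293T cells kept its sign but moved, with a log2 FC of 0.066 without S18 and 0.79 without S19. In NPCs, KRT23, the keratin gene called lower, was not called with voom, and was not tested with all 10 libraries in 1 fit, since it is listed in NPCs alone (0 genes called lower in each), and leaving out libraries gave 0 to 1. For the interaction, leaving out libraries gave 1 to 2 members and 1 to 2 keratin genes called higher. Between WT cell types, no FC threshold gave 4 members called higher (KRT18 added), 1 member (KRT10) called lower and 2 keratin genes called lower, and leaving out libraries gave 0 to 1 members and 1 to 2 keratin genes called lower. Leaving out an NPC library leaves 1 library in an arm, which is assumed to vary like the others. No paired analysis was possible because the labels do not tie a library to a parental line or culture. Library size alone moved the median log2 FC of all genes from -0.02 to -0.13 in NPCs and from -0.03 to -0.24 for the interaction, and the members' calls in both stayed.

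The chain ratios move with the length used, by construction. For WT HEK293T, KO HEK293T, WT NPC and KO NPC, the type II to type I ratio was 0.068, 0.072, 1.51 and 0.783 from counts without length, and 0.057, 0.0598, 1.22 and 0.627 with the canonical transcript. The KRT8 to KRT18 ratio was 0.0812, 0.0834, 1.75 and 0.82 without length, and 0.0643, 0.0661, 1.38 and 0.649 with the canonical transcript. Without KRT10 the type II to type I ratio was 0.0362 in WT HEK293T and 0.691 in WT NPC. Depth limits KRT7 in WT NPCs and the keratins at 0 in HEK293T cells, and 2 libraries a group limit NPC results.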
